A study of Mus musculus with 2 samples.

Results

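The genes described here are 10 regulators of the hepatic acute phase response, chosen by symbol from the 24054 genes of the deposited TPM table. They are the cytokine receptors Il6ra, Il6st, Osmr and Il1r1, the transcription factor Stat3, its feedback inhibitor Socs3, the C/EBP factors Cebpb and Cebpd, and the NF-kB regulators Nfkbia and Nfkbiz. All 10 were listed in both libraries, and each averaged at least 1 TPM over both, as did 11623 genes in all.

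The study asked how loss of Pgrmc1, a membrane heme-binding protein, changed the mouse liver. Liver RNA of male C57BL/6 mice aged 8 to 12 weeks was pooled by genotype, with 2.5 μg from each of 5 mice, and sequenced as 1 stranded total RNA library per genotype. The Pgrmc1 KO mice (Pgrmc1 -/Y) lacked exons 1 and 2 of this X-linked gene in the whole body, from a floxed C57BL/6N allele recombined by Sox2-Cre, which acts in the early embryo. The WT mice carried no deletion, and whether they were littermates or carried Cre is not given in the sources used here. Because the mice of a genotype were pooled, no difference between KO and WT has a replicate check, and no p-value is given.

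IL-6 binds its receptor Il6ra, and the complex engages the shared signalling chain Il6st (gp130), which activates JAK kinases and through them STAT3. In hepatocytes STAT3 acts with C/EBP factors to switch on genes of secreted acute phase proteins, while IL-1 and TNF act through NF-kB on an overlapping set of genes. Socs3 and the IkB proteins are among the genes these factors induce, and they limit the same signals.

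None of the 10 regulators passed a fold of 1.4 upward or 0.6 downward in the KO library. Among the 11623 genes that averaged at least 1 TPM, 1.09% passed upward and 0.301% passed downward. The inverse of 1.4 is 0.714, so the downward fold is the stricter, and these shares do not compare rises with falls. The unit of every difference is log2((KO TPM + 1)/(WT TPM + 1)), so a positive value is a higher level in KO, and this scale understates the difference of low genes. TPM (a share of all transcripts) is a level per length of transcript, so levels can also be compared between genes. The median difference of the 10 genes was 0.04, against -0.01 for all genes. Above 0 lay 6 of the 10, against 5319 of the 11623 genes. The most negative of the 10 was Il1r1 at -0.42 and the most positive Socs3 at 0.31. In contrast, 6 of 27 secreted acute phase genes passed the fold of 1.4 upward in the same library, among them Saa1 and Saa2.

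The label of each library was checked with Pgrmc1 itself, which stood at 0.68 TPM in KO against 949.49 in WT, a log2 difference of -9.14. The authors' second table gives a mean signal per library for 16318 genes, corrected for depth with a size factor. In it 1 read was estimated to be worth 1.1622 in KO and 0.8605 in WT. At those values its genes sum to about 22086692 estimated reads in KO and 29710419 in WT. The error given beside a gene is the 95% Clopper-Pearson interval of its ratio of means on the log2 scale, which covers counting error only.

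**Figure D1:**
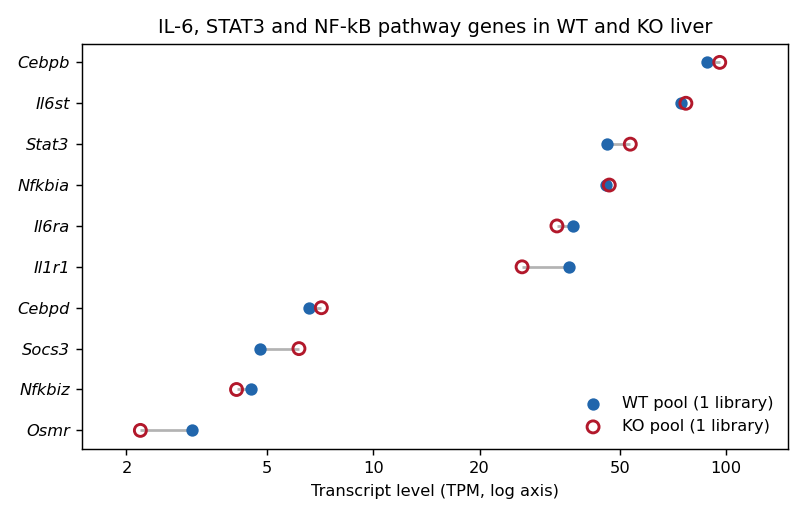
Level of each of the 10 genes in the KO library and the WT library in TPM on a log axis, with 1 point per library and no error bar because each genotype is 1 pool. The order of the genes is the same in both libraries, from Cebpb at 95.82 TPM in KO down to Osmr at 2.19 TPM.

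The levels of the 10 genes spanned a wide range but kept 1 order in both libraries. From the highest to the lowest, that order was Cebpb, Il6st, Stat3, Nfkbia, Il6ra, Il1r1, Cebpd, Socs3, Nfkbiz and Osmr. In WT, Cebpb was higher than 90.3% of genes that averaged at least 1 TPM, and Osmr was higher than 18.0% of them. The spread behind this order is unknown, so it could not be tested whether neighbours such as Stat3 and Nfkbia differed within a genotype.

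Il6ra, the IL-6 binding chain (Entrez gene 16194; chromosome 3, 89869324 to 89913196 of GRCm38, the mm10 assembly), was at 33.14 TPM in KO against 36.84 in WT. Its log2 difference was -0.15, and the ratio of means was -0.14 (interval -0.24 to -0.05, on 1481.7 and 2206.8 estimated reads). As large a negative difference was held by 16.0% of all genes. Il6st, the gp130 chain (gene 16195; chromosome 13, 112464070 to 112506860), was at 76.84 TPM in KO against 74.20 in WT, a log2 difference of 0.05. The interval of its ratio of means ran from 0.01 to 0.11. The level of the signalling chain was thus 2.32 times that of Il6ra in KO and 2.01 times in WT.

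Osmr, which pairs with Il6st to form the receptor of oncostatin M (gene 18414; chromosome 15, 6813568 to 6874968), was the lowest of the 10 genes, at 2.19 TPM in KO against 3.07 in WT. Its log2 difference was -0.35 on the TPM scale and -0.48 on the ratio of means (interval -0.79 to -0.19). That interval rests on 143.0 and 270.0 estimated reads. As large a negative difference was held by 2.69% of all genes. Il1r1, the signalling receptor of IL-1 (gene 16177; chromosome 1, 40222480 to 40316201), was at 26.40 TPM in KO against 35.75 in WT, a log2 difference of -0.42. Its ratio of means was -0.43 (interval -0.51 to -0.34, on 1703.0 and 3088.8 estimated reads). Only 1.57% of genes had as large a negative difference, and yet Il1r1 did not reach the fold of 0.6. Its partner chain Il1rap stood at 106.82 TPM in KO against 112.15 in WT, so the level of Il1rap was 4.05 times that of Il1r1 in KO and 3.14 times in WT.

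Cells other than hepatocytes also express these receptors, and in pooled tissue RNA fewer cells of a type and less RNA per cell cannot be told apart. All 9 endothelial markers lay below 0, while 5319 of all 11623 genes lay above 0. The endothelial markers summed to 191.14 TPM in KO against 209.73 in WT. Lyve1, a sinusoidal receptor, had the lowest value of the 9 at -0.60 and Stab1 the highest at -0.01. Of 8 stellate cell markers, 2 lay above 0 and 6 below, from Des at -0.26 to Lrat at 0.17, with a sum of 264.75 TPM in KO against 289.23 in WT. The part of these cells in the values of Osmr and Il1r1 was not tested.

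Stat3, the factor that IL-6 receptors activate (gene 20848; chromosome 11, 100886806 to 100939594), was at 53.47 TPM in KO against 46.01 in WT. Its log2 difference was 0.21, and the interval of the ratio of means ran from 0.16 to 0.30. As large a positive difference was held by 8.13% of all genes. Transcript level does not report phosphorylation, the step that activates a STAT protein.

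Socs3, which binds Il6st and JAK kinases and ends the signal (gene 12702; chromosome 11, 117966079 to 117970336), was at 6.16 TPM in KO against 4.79 in WT. Its log2 difference of 0.31 was the highest of the 10 genes, and 3.69% of all genes were as high. The ratio of means was 0.38 with a wide interval, 0.10 to 0.65, on 221.0 and 230.0 estimated reads. The level of Stat3 was 8.68 times that of Socs3 in KO and 9.61 times in WT.

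Cebpb, an activator of acute phase promoters (gene 12608; chromosome 2, 167688915 to 167690432), had the highest level of the 10 genes, 95.82 TPM in KO against 88.25 in WT. The log2 difference was 0.12 (its ratio of means spanned 0.04 to 0.22). Cebpd, a related factor that IL-6 signals induce (gene 12609; chromosome 16, 15887286 to 15889545), was at 7.13 TPM in KO against 6.57 in WT, a log2 difference of 0.10. Its interval, -0.14 to 0.40, held 0. The level of Cebpb was 13.4 times that of Cebpd in both libraries.

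Nfkbia, which encodes IkB alpha and holds NF-kB in the cytoplasm (gene 18035; chromosome 12, 55489409 to 55492647), was at 46.62 TPM in KO against 45.68 in WT. The log2 difference of 0.03 was the nearest to 0 of the 10 genes, with an interval of -0.08 to 0.17. Nfkbiz, a nuclear IkB protein that works with NF-kB on secondary response genes (gene 80859; chromosome 16, 55811375 to 55838954), was at 4.10 TPM in KO against 4.51 in WT. The log2 difference was -0.11, and its interval, -0.40 to 0.13, held 0 as well.

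**Figure D2:**
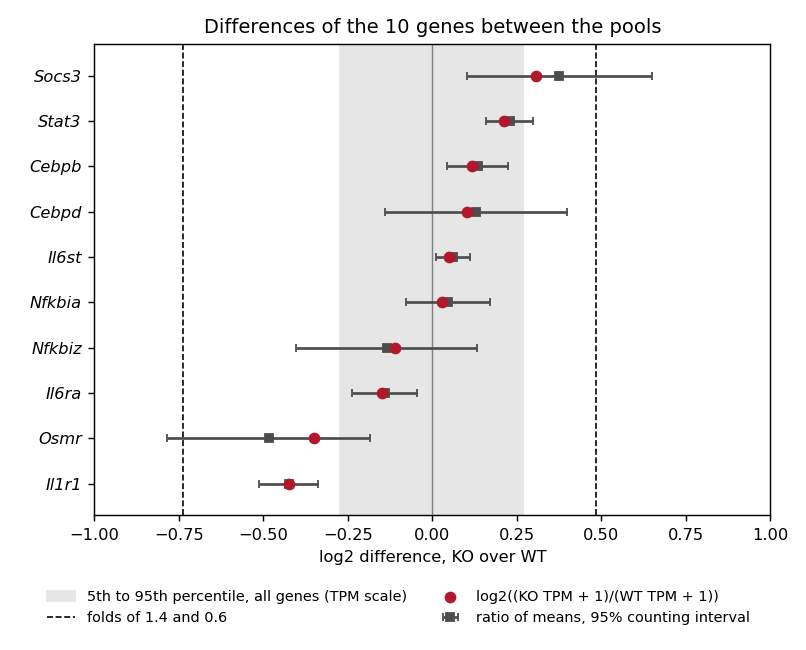
Difference of each of the 10 genes between the pools on the log2 scale, KO over WT, from TPM (circles) and from the authors' means (squares, with 95% counting intervals). The grey band is the 5th to 95th percentile of all genes on the TPM scale (-0.27 to 0.27) and the dashed lines are folds of 1.4 and 0.6, which no circle reaches.

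By counting error alone, the intervals of 7 of the 10 genes did not hold 0, and those of Cebpd, Nfkbia and Nfkbiz did. Of all genes at that level with an interval, 25.1% had one without 0. Intervals narrow with the number of reads and leave out the spread between mice, so these shares are not a comparison of the genotypes. With smaller folds of 1.2 upward and 1/1.2 downward, Socs3 passed upward, and Osmr and Il1r1 passed downward. For all genes the shares were 5.27% upward and 5.51% downward. The other 7 genes stayed within a fold of 1.2.

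**Figure D3:**
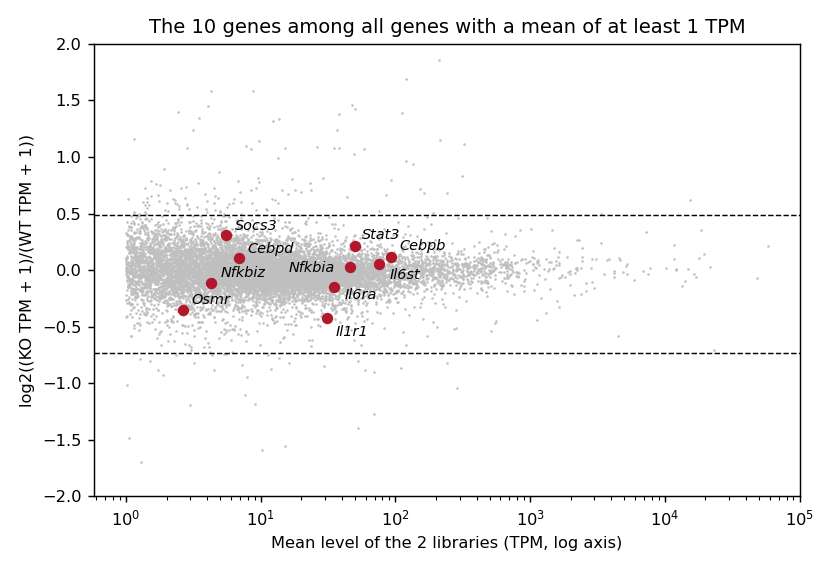
Log2 difference, KO over WT, against the mean level in TPM (log axis) for genes averaging at least 1 TPM in grey, with the 10 genes in red and folds of 1.4 and 0.6 dashed. The vertical axis stops at 2 on either side, which leaves out 19 genes, and the 10 genes sit between -0.42 and 0.31.

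The other genes of these pathways were described from 11 lists that hold 113 further genes, 88 of them averaging at least 1 TPM. Of these 88 genes, 4 passed the fold of 1.4 upward, 3 passed 0.6 downward and 81 passed neither. The shares were 4.55% upward and 3.41% downward, against 1.09% and 0.301% of all genes. Within a fold of 1.2 lay 79.55% of the 88 genes and 89.1% of all genes, a difference in share that was not tested. Their median log2 difference was -0.02, against -0.01 for all genes.

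The ligands were at or near the lower end of the table. Il6 was listed at 0.15 TPM in KO against 0.06 in WT, on 1 and 0 estimated reads, and Tnf at 0.15 TPM and 0.18 TPM, on 1 and 3 reads. A difference in either was not detectable at this depth. Of 9 IL-6 family ligands, 2 averaged at least 1 TPM, Ctf1 at 3.39 TPM in KO against 2.49 in WT, and Cntf at 1.95 TPM and 2.18 TPM. Cntf shares 76.9% of its 100-base windows with Zfp91, so its value is uncertain. Il1b, the IL-1 ligand that myeloid cells make, was at 1.66 TPM in KO against 1.10 in WT, with an interval of -0.26 to 1.49.

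None of the 6 IL-6 family receptors averaging at least 1 TPM passed a fold, and their median was -0.06. Only 3 of these 6 are not among the 10 regulators. Lifr, the receptor chain for LIF, had the highest difference among them at 0.05, with 183.30 TPM in KO against 177.00 in WT. None of 10 JAK and STAT genes passed either. The highest was Jak3 at 0.39, with 4.87 TPM in KO against 3.47 in WT. Among 7 IL-1 and TNF ligands and receptors none passed, and their median was 0.10. At the shares of all genes, 1.09% upward and 0.301% downward, lists this short would hold few or none past a fold.

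Feedback genes of JAK-STAT signalling held a pair that moved in opposite directions. Socs2, which limits growth hormone signalling and is induced through STAT5, was at 17.97 TPM in KO against 10.58 in WT and passed upward, with a log2 difference of 0.71 (its ratio of means spanned 0.56 to 0.95). Cish, another STAT5 target, was at 3.78 TPM in KO against 6.98 in WT and passed downward, with -0.74 (interval -1.22 to -0.55). The fold of Cish, 0.599, is only just under 0.6. The other 10 of 12 feedback genes, Socs3 included, passed neither fold. Of all genes, 1.09% passed upward and 0.301% downward.

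In the C/EBP family, 2 of 7 genes passed downward and none upward, against 0.301% and 1.09% of all genes. Ddit3 (CHOP), which the unfolded protein response induces, was at 4.91 TPM in KO against 9.60 in WT, a log2 difference of -0.84. Cebpe, known from granulocyte maturation, was at 3.0 TPM in KO against 5.73 in WT, a difference of -0.75. Cebpa, the main C/EBP factor of resting hepatocytes, was at 185.67 TPM in KO against 175.97 in WT, and its level was 1.94 times that of Cebpb in KO and 1.99 times in WT.

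On the NF-kB side, none of 9 IKK and NF-kB subunit genes and none of 11 IkB and feedback genes passed a fold. Their medians were -0.03 and 0.00. The highest subunit gene was Nfkb2 at 0.04 and the lowest Relb at -0.29, and among the IkB genes Bcl3 was highest at 0.17 and Nfkbiz lowest. Rela, the transactivating subunit that Nfkbia retains, was at 17.37 TPM in KO against 17.52 in WT, and the level of Nfkbia was 2.68 and 2.61 times that of Rela. Of 17 Toll-like receptor and IL-1 receptor adaptor genes, 1 passed upward and none downward, against 1.09% and 0.301% of all genes. The gene past the fold was Cd14, a co-receptor for bacterial lipopolysaccharide, at 3.58 TPM in KO against 2.08 in WT (log2 difference 0.57). The lowest of the 17, the lipopolysaccharide co-receptor gene Ly96, was at 5.99 TPM and 8.52 TPM with an interval of -1.16 to 0.09. Among 7 NF-kB target genes for cytokines and adhesion proteins none passed, with the chemokine Cxcl1 highest at 0.25 and the adhesion gene Vcam1 lowest at -0.45.

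Regulators that STAT3 is known to induce were described as a list of 16 genes averaging at least 1 TPM, with a median of 0.11. Of the 16 genes, 2 passed upward and none downward, against 1.09% and 0.301% of all genes. Myc, a growth regulator, was at 5.89 TPM in KO against 3.16 in WT, a log2 difference of 0.73. Bcl6, a transcriptional repressor that STAT5 also controls, was at 22.55 TPM in KO against 13.40 in WT, a difference of 0.71. The lowest was Fos at -0.45. Socs3, Cebpb and Cebpd, which also stand in this list, passed neither fold.

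**Figure D4:**
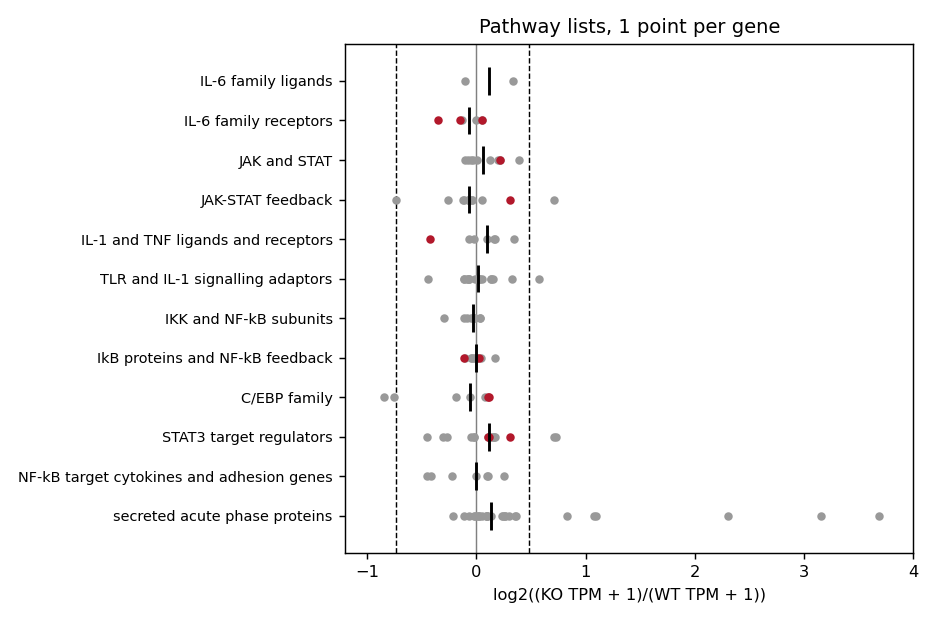
Log2 differences, KO over WT, of the genes of each list averaging at least 1 TPM, with 1 point per gene (red for the 10 regulators), the median of each list as a bar and folds of 1.4 and 0.6 as dashed lines. The secreted acute phase list holds 6 of 27 genes past 1.4. Among the signalling lists, 2 of 7 C/EBP genes lie past 0.6 and 2 of 16 STAT3 targets past 1.4. JAK-STAT feedback holds 1 of 12 past each fold, the adaptors 1 of 17 past 1.4, and the other signalling lists none. Of all genes, 1.09% lie past 1.4 and 0.301% past 0.6.

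The secreted acute phase proteins, the output of these pathways in hepatocytes, had a median log2 difference of 0.13, against -0.01 for all genes. Of the 27 genes, 22 lay above 0, against 5319 of all 11623 genes. Saa2 was at 431.73 TPM in KO against 32.58 in WT, and Saa1 at 495.52 TPM and 54.88 TPM. Orm2, an orosomucoid, was at 29.06 TPM in KO against 5.10 in WT, and Lcn2, which binds bacterial siderophores, at 11.03 TPM and 4.63 TPM. Saa3 (20.72 TPM and 9.30 TPM) and Fgl1 (402.38 TPM and 225.87 TPM) completed the 6 genes past the fold, whose log2 differences ran from 0.83 to 3.69.

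The other 21 acute phase genes passed neither fold. With the smaller fold of 1.2, 11 of the 27 passed upward, the 6 above included, and 0 passed downward, against 5.27% and 5.51% of all genes. The highest of the 21 were Orm1 (0.36), Itih4 (0.35) and Apcs (0.30), which encodes serum amyloid P, and Orm1 was at 1137.08 TPM in KO against 884.10 in WT. Haptoglobin (Hp) was at 2437.23 TPM in KO against 2030.82 in WT (log2 difference 0.26), hemopexin (Hpx) had a difference of 0.24, and the fibrinogen genes Fga and Fgb had 0.10 and 0.09. Hamp, which encodes the iron hormone hepcidin, was lowest at -0.21, with 707.87 TPM in KO against 819.37 in WT. Orm1, Itih4, Apcs, Hp, Hpx, Fga and Fgb were picked from the list after their values were seen. RSEM can share reads between paralogs. On the longest transcript of each gene, Saa1 shares 9.80% of its 100-base windows with Saa2, and Orm2 6.95% with Orm1. The 10 regulators share 0% with any other gene on that measure, and shares on shorter transcripts were not computed.

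Beside these values, markers of resident macrophages were mostly above 0, and markers of recruited cells were low. Of 11 Kupffer cell markers, 10 lay above 0, against 5319 of all 11623 genes. The Kupffer cell markers summed to 409.21 TPM in KO against 360.67 in WT, from Cd68 at -0.26 to Folr2 at 0.44. Of 12 neutrophil and monocyte markers, 3 averaged at least 1 TPM, from S100a8 at 0.01 to S100a9 at 0.36. S100a8 rested on 6.0 and 8.0 estimated reads and S100a9 on 17.0 and 16.0, and both intervals held 0. The neutrophil and monocyte list summed to 11.55 TPM in KO against 10.88 in WT, with the granule gene Mpo at 0.03 TPM and 0.02 TPM. Lymphocyte markers summed to 4.94 TPM in KO against 4.74 in WT, with only Cd79b averaging at least 1 TPM, at 0.42. The interval of Cd79b, -0.20 to 1.98 on 19.0 and 14.0 estimated reads, held 0. The 7 hepatocyte markers summed to 71400.16 TPM in KO against 74251.42 in WT, from Cps1 at -0.13 to Serpina1a at 0.09. The 4 cholangiocyte markers at or above 1 TPM ran from Epcam at -0.59 to Krt19 at 0.01, with a summed level of 62.04 TPM in KO against 66.96 in WT over the list. The part of these cells in the acute phase values was not tested.

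Sequences upstream of the genes show where letters recognised by these factors lie. The 250 bases before each annotated start were taken from RefSeq on GRCm38.p6, with 8 of the 10 genes matched and Cebpd and Nfkbiz not matched. Both strands were searched for TTCNNNGAA (STAT), TTGCNNAA (C/EBP) and the NF-kB consensus. Over all 32851 windows, 7.02% held the STAT letters, 9.56% the C/EBP letters and 3.90% the NF-kB letters. Of the 8 matched genes, 1 held the STAT letters, 1 the C/EBP letters and 2 the NF-kB letters. These counts are per gene and the shares per window, and a gene can have more than 1 window. A match describes letters only, and no match says only that they are not in the window.

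All sites found upstream of the matched regulators are printed, and they belong to Socs3, Nfkbia and Il1r1. Each is read 5′ to 3′ on the strand of its gene, with capitals for the motif and 10 bases on either side.
Socs3, STAT letters, chr11:117969502-117969530, minus strand: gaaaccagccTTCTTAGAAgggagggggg
Nfkbia, NF-kB letters, chr12:55492657-55492686, minus strand: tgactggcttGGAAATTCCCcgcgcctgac
Il1r1, C/EBP letters, chr1:40224937-40224964, plus strand: cctggcacgtTTGCTGAAtgcttctggc
Il1r1, NF-kB letters, chr1:40266344-40266373, plus strand: cagggattttGGAATGCCCCcaaggagatg

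The Socs3 letters lie at -154 to -146 from the annotated start, inside an intron of Socs3 in GENCODE vM21, and the Nfkbia letters at -29 to -20, outside any exon or intron of the annotation. Il1r1 has more than 1 annotated start. Its C/EBP letters lie at -133 to -126 from one, and its NF-kB letters at -232 to -223 from another, inside an intron of Il1r1. Neither Socs3 nor Nfkbia nor Il1r1 passed a fold of 1.4 or 0.6.

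For comparison, the sites upstream of acute phase genes past the fold are printed for the Saa genes and Orm2, where C/EBP letters were found.
Saa1, C/EBP letters, chr7:46743145-46743172, minus strand: tgtgctcccaTTGCACAAtgagggagaa
Saa2, C/EBP letters, chr7:46751640-46751667, plus strand: tgtgctcccaTTGCACAAtgagggaaaa
Saa3, C/EBP letters, chr7:46715758-46715785, minus strand: gtaagtgggaTTATGCAAgatcaaacag
Orm2, C/EBP letters, chr4:63362319-63362346, plus strand: agagaacattTTGCGCAAgacatttccc

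The Saa3 site matches on the opposite strand, as do both NF-kB sites printed further above, those of Nfkbia and Il1r1. The Saa1 and Saa3 sites, like the C/EBP site of Il1r1, lie inside the RefSeq spans of their genes, before a start within the span. Saa1 spans 46740497 to 46743181 and Saa3 46711998 to 46719615. GENCODE vM21 places no exon or intron at these sites. Of the 6 acute phase genes past the fold, 5 had a window. All 5 held C/EBP letters, as did 7 of 15 acute phase genes that passed neither fold. The windows of Saa1 and Saa2 are nearly the same sequence, so the 5 are not separate observations. The letters of Lcn2, the fifth gene, lie inside an annotated exon of Lcn2. STAT letters were in 0 of the 5 and in 5 of the 15, and NF-kB letters in none of either. The motifs and windows were chosen after the expression values were seen, and the letters were not compared with binding data.

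**Figure D5:**
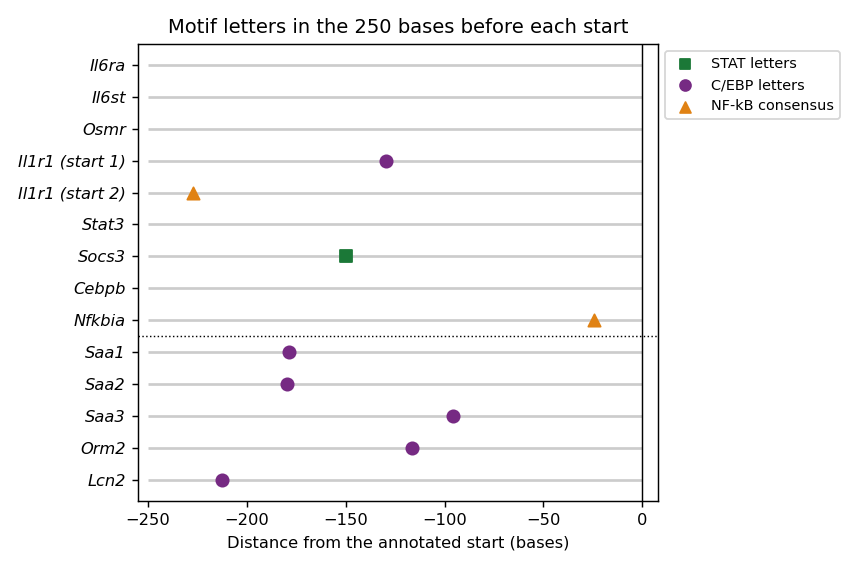
Position of STAT, C/EBP and NF-kB letters in bases from the annotated start with 1 mark per match and 1 row per start, for the matched regulators (above the dotted line) and 5 acute phase genes past the fold (under it). The C/EBP letters of Saa1 and Saa2 lie at nearly the same place, -182 and -183, and those of Saa3 begin at -99.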

How the data were processed

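Per the submitters' processing notes and the study's methods, CASAVA 1.8.2 made the reads, and RSEM 1.2.09 with Bowtie aligned them to mm10. The authors deposited TPM per gene for 24054 genes, with column sums of 1005325 (KO) and 994702 (WT). A second table deposited by the authors holds, for 16318 genes, a mean signal per library from EBSeq (estimated reads over a size factor), beside posterior probabilities of equal and differential expression and fold changes, which are the authors' own comparison and were not used. Its columns were assigned to genotypes from the headings of the study's gene table. RSEM divides reads that match several genes, so only 78.4% of KO and 75.0% of WT values were whole reads within 0.02, and no count test was run.

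Each difference was taken as log2((KO TPM + 1)/(WT TPM + 1)), and a gene was counted past the fold at 1.4 or 0.6 where it averaged at least 1 TPM and lay above 0 in both libraries. The members and gene lists were chosen with earlier results of these data known, and the lists rest on general knowledge. Named were the members, Pgrmc1 and, from each list, genes past a fold and the highest and lowest; partners given in ratios, ligands and other genes named were chosen after their values were seen. The lowest gene of 1 list is not reported here. Coordinates are from RefSeq on GRCm38. Shared 100-base windows were computed on the longest GENCODE vM21 transcript of each gene, against the transcripts of all other genes. The computations were tested on simulated data and used scipy 1.17.1, pandas 2.3.3, numpy 2.4.6 and matplotlib 3.10.9 under Python 3.11.15. Alternatives were another pseudocount, the authors' means, centring, rescaling, other folds and other filters on low values.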

Additional observations from a re-analysis of the deposited data

How the results depend on the processing

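The 10 regulators kept their sign under a pseudocount of 0.1 TPM, centring on the median gene, use of the authors' means and rescaling without the 50 most abundant genes, and all 40 of their values moved by less than their counting error. Osmr ranged from -0.48 to -0.34 and Il1r1 from -0.44 to -0.41. The counts past a fold stayed at 0 except with folds of 1.2 and 1/1.2, where 1 passed upward and 2 downward by construction. The Pgrmc1 difference was -10.25 with a pseudocount of 0.1 TPM and -10.44 on the authors' means, since its KO level is near 0. Of 117 medians of gene lists, 12 changed sign or left 0, all of lists with a median between -0.06 and 0.10. Which other list genes pass a fold was not recomputed under these settings. No paired analysis was possible because KO and WT are 1 pooled library each, and for the same reason no library could be left out. Depth limits the low genes most, as the intervals of Osmr, Socs3, Cebpd and Nfkbiz show.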

Other observations

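Glucocorticoids induce many liver genes, among them Cebpb, Cebpd and Nfkbia, and a list of 18 genes that respond to them was described in the same way. The median log2 difference was -0.03, with 7 genes above 0 and 11 below. Of the 18 genes, 4 passed the fold of 1.4 upward and none passed 0.6 downward, against 1.09% and 0.301% of all genes. With the smaller folds of 1.2 and 1/1.2, 4 passed upward and 5 downward, against 5.27% and 5.51% of all genes. The metallothioneins Mt2 and Mt1, which bind zinc, were at 55.90 TPM and 159.49 TPM in KO and at 20.86 TPM and 81.28 TPM in WT, with log2 differences of 1.38 and 0.96. The kinase gene Sgk1 was at 29.63 TPM in KO against 16.91 in WT, a difference of 0.77, and Lcn2, which is also an acute phase gene, was the fourth. Fkbp5, a chaperone of the glucocorticoid receptor, was lowest, at 34.86 TPM in KO against 50.62 in WT, a difference of -0.53. Metallothioneins also respond to IL-6 and to metals, and the lists share members.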
